A study of Mus musculus with 18 samples.

Results

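The Kruppel-like factors (Klf) are transcription factors that bind GC-rich and CACCC-type DNA through zinc fingers at the end of the protein. They were examined here in O9-1 cells, a line of neural crest (NC) cells that was derived from the heads of mouse embryos, during culture in osteoblast differentiation medium. The 10 members were taken by name (Klf2, Klf3, Klf4, Klf5, Klf6, Klf7, Klf9, Klf10, Klf11 and Klf15) from the 55335 gene identifiers of the count files, after the identifiers were matched to mouse gene symbols. They are not the whole family and were chosen with earlier results of these data known. Shares of members called therefore describe these genes only. Bulk RNA-seq, which counts the polyadenylated RNA of all cells of a culture together, was available for 18 libraries, with 3 replicates of each of 3 groups at d2.5 and again at d5. Ctrl+vehicle cells received a control siRNA and no FGF2, and Ctrl+FGF2 cells the control siRNA with FGF2. Y/T dKD+FGF2 cells received pooled siRNAs against Yap and Taz (genes Yap1 and Wwtr1) together with FGF2. All cells carried the wild-type genotype, and no group combined the knockdown with vehicle, so the knockdown was read on a background of FGF2 alone. The cells are 1 established line, and nothing in the labels says that the replicates came from separate cultures, so p-values measure the spread between these samples, which may be technical. The labels name each day as its own batch, and day and batch cannot be told apart.

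Family members fall into groups by the partners they bind outside the zinc fingers. Klf2, Klf4, Klf5, Klf6 and Klf7 mostly activate transcription, Klf3 recruits the corepressor CtBP, Klf9, Klf10 and Klf11 recruit the Sin3 corepressor, and Klf15 stands outside these groups. Klf4 is one of the factors that reprogram somatic cells to pluripotency, Klf10 was first isolated as a gene induced early by TGF-beta in osteoblasts, and Klf9 and Klf15 are induced by glucocorticoids in many tissues.

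The libraries held between 10377151 and 14698525 counts on genes (median 12330911). The siRNA targets were read as a check of the labels: Yap1 was at 51.5% and Wwtr1 at 60.8% of the Ctrl+FGF2 level in the knockdown cells at d2.5, and at 46% and 57.5% at d5. The 4 reductions passed the test used throughout (edgeR's quasi-likelihood test, Benjamini-Hochberg adjusted p under 0.05; genes that pass are called), and both transcripts were still well detected. FGF2 itself raised Wwtr1 1.57-fold at d2.5 (0.65 ± 0.04, adjusted p = 1.3e-16) and lowered Yap1 to 85.4% (-0.23 ± 0.04). The knockdown cells at d2.5 held Wwtr1 at 95.6% of the Ctrl+vehicle level (-0.06, 95% interval -0.14 to 0.01, adjusted p = 0.122) and Yap1 at 44%, whereas at d5 they held 53.9% and 48.3%. Of 12 NC markers, Twist1, Snai1, Snai2, Sox9, Tfap2a and Ets1 were measured well. Sox10 and Foxd3 had no counts in any library, and Ngfr had 16 counts in all. Summed over the list, NC markers ranged from 266 to 484 CPM (normalized CPM, read counts put on the same library size) over the 18 libraries. At d2.5 they were at 452 to 484 CPM in Ctrl+vehicle and at 291 to 300.1 CPM in Ctrl+FGF2. At d5 the sums overlapped, at 369 to 379.6 CPM in Ctrl+vehicle and 362 to 375 CPM in Ctrl+FGF2. Single NC markers moved both ways with FGF2 at d5, such as Sox9 (0.91 ± 0.05) and Snai2 (-0.87 ± 0.05). Osteoblast markers moved strongly with FGF2, though not all one way: at d2.5 2 of the 7 tested rose and 5 fell, and at d5 3 of 8 rose and 5 fell. Alpl, the alkaline phosphatase of bone, fell most at d2.5 (-9.61 ± 0.17). Its mean was 115 CPM in Ctrl+vehicle and 0.140 CPM in Ctrl+FGF2. The latter level is near the floor, so the size of this fold is poorly determined. The genes that rose, named after their values were seen, were Spp1 (0.78 ± 0.03) and Phex (1.76 ± 0.14) at d2.5, and both again with Runx2 (0.40 ± 0.05) at d5. The sum of the 8 genes, in which the collagen gene Col1a1 (a mean of 12636 CPM in Ctrl+vehicle and 2203 CPM in Ctrl+FGF2 at d2.5) and Spp1 (4001 and 6915 CPM) weigh most, was between 16937 and 17360.2 CPM in Ctrl+vehicle and between 9141 and 9364 CPM in Ctrl+FGF2 at d2.5. At d5 the sum was 32277 to 34502 CPM with vehicle, 17776 to 19180.1 CPM with FGF2 and 24393 to 26050.0 CPM with FGF2 and the knockdown. The part of this shift in the Klf results below was not tested, and in bulk samples fewer cells of a type and less RNA per cell cannot be told apart. Markers of other cell types were near 0: 6 endothelial genes summed to at most 4.32 CPM with Cdh5, Kdr and Tie1 at 3 counts or fewer in all libraries together, 6 epithelial genes to at most 5.61 CPM, and 6 blood cell genes to at most 5.50 CPM.

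Promoter sequence is shown for Klf2, Klf4 and Klf15, since Klf4 changed most with FGF2 and Klf15 and Klf2 changed most between the days. The windows run from 250 bases before to 50 bases after the RefSeq start and are printed 5′ to 3′ on the gene's own strand (GRCm38.p6). Capitals mark the match to the Mef2 site in Klf2, the GC boxes (GGGCGG) and the E-box (CACGTG) in Klf4, and the E-boxes in Klf15, searched on both strands. The windows lie at chr8:72318812-72319111 on the plus strand for Klf2, at chr4:55532426-55532725 on the minus strand for Klf4 and at chr6:90462326-90462625 on the plus strand for Klf15.
Klf2: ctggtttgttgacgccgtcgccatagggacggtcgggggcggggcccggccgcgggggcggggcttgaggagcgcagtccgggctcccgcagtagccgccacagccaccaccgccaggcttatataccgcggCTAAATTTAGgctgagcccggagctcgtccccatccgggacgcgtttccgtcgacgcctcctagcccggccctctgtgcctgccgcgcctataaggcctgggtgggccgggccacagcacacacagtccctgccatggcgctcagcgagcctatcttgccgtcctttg
Klf4: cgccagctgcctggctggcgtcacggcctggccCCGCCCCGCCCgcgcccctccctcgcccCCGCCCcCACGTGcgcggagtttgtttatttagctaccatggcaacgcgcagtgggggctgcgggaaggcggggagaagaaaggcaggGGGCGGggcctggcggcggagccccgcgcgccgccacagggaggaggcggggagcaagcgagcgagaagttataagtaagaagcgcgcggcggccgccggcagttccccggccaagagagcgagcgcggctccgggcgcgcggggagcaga
Klf15: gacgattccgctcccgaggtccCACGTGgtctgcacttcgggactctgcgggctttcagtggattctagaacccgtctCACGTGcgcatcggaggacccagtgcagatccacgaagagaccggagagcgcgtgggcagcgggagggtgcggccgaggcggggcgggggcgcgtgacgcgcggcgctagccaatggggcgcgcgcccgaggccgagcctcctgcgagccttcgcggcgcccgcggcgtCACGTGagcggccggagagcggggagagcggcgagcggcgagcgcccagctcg
RefSeq windows were at hand for 8 of the 10 members (Klf2, Klf3, Klf4, Klf6, Klf7, Klf9, Klf11 and Klf15). The Mef2 site, the target of the Erk5 and Mef2 cascade that is known to drive Klf2 in endothelium, matched in Klf2 alone among these windows, at positions -118 to -109 from the start, and in 0.557% of all 32851 windows. The E-box matched 3 times in Klf15 and once each in Klf4, Klf6 and Klf11, against 7.15% of all windows with a match. GC boxes, the type of site that the family and the related Sp factors bind, were in 7 of the 8 windows and in 35.7% of all. Of the 4 GC boxes in Klf4, 2 overlap by a base. In Klf2 and Klf15 the GC boxes (2 and 1) are not capitalised. The Tead site GGAATG, through whose factors Yap and Taz act on DNA, was in 0 of the 8 windows and in 14.7% of all; the CRE (TGACGTCA, in 1.79% of all) and the CArG box (1.63%) were also in 0, and the AP-1 site (TGANTCA, 7.81%) was in Klf9. These matches describe letters in a short window and no binding.

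Levels between genes can be compared per length, as CPM per kb of exon. On that scale Klf6 and Klf9 were the most abundant members in all 6 groups. In Ctrl+vehicle at d2.5 Klf6 was at 44.0 ± 1.74 CPM per kb and Klf9 at 41.3 ± 0.960 (SD, n = 3 here and below), and their ranges overlapped. Klf10 followed with 23.3 ± 1.85, then Klf7 with 11.1 ± 0.496 and Klf4 with 10.9 ± 0.857, whose ranges overlapped. Klf3 (8.99 ± 0.241) and Klf5 (8.44 ± 0.367) also overlapped, and Klf2 (6.75 ± 0.850), Klf11 (2.64 ± 0.106) and Klf15 (0.966 ± 0.347) came last, each below the one before. By d5 the order had shifted: in Ctrl+vehicle Klf9 stood first at 88.1 ± 2.33 CPM per kb and Klf6 at 69.0 ± 2.96, without overlap. Klf4 came next at 18.7 ± 1.65, Klf2 (15.6 ± 1.24) overlapped Klf3 (14.1 ± 0.644), Klf3 overlapped Klf7 (13.0 ± 1.36), and Klf7 overlapped Klf10 (11.3 ± 0.467). Klf15 (6.39 ± 0.333), Klf5 (4.70 ± 0.196) and Klf11 (2.54 ± 0.223) closed the order. In the FGF2-treated groups Klf4 ranked 3 of 10 at d2.5 (23.8 ± 1.27 CPM per kb in Ctrl+FGF2) and 7 of 10 at d5 (9.70 ± 0.789), where its range overlapped that of Klf15 (10.3 ± 0.654). By the annotation (GENCODE M21, GRCm38) each member lies on a chromosome of its own. Klf2 runs on chromosome 8 from 72319033 to 72321656, Klf4 on chromosome 4 from 55527143 to 55532466, Klf10 on chromosome 15 from 38291463 to 38300706 and Klf15 on chromosome 6 from 90462576 to 90475238. Klf3, Klf7 and Klf9 overlap non-coding genes on their own strand, and reads shared with those were not counted. The counts behind these levels were lowest for Klf15 at d2.5, with 11 to 54 counts per library. Also at d2.5, Klf11 had 81 to 88 counts in Ctrl+FGF2 and 61 to 83 in Y/T dKD+FGF2. Klf2 had 64 to 75 counts in Y/T dKD+FGF2 at d2.5.

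**Figure D1:**
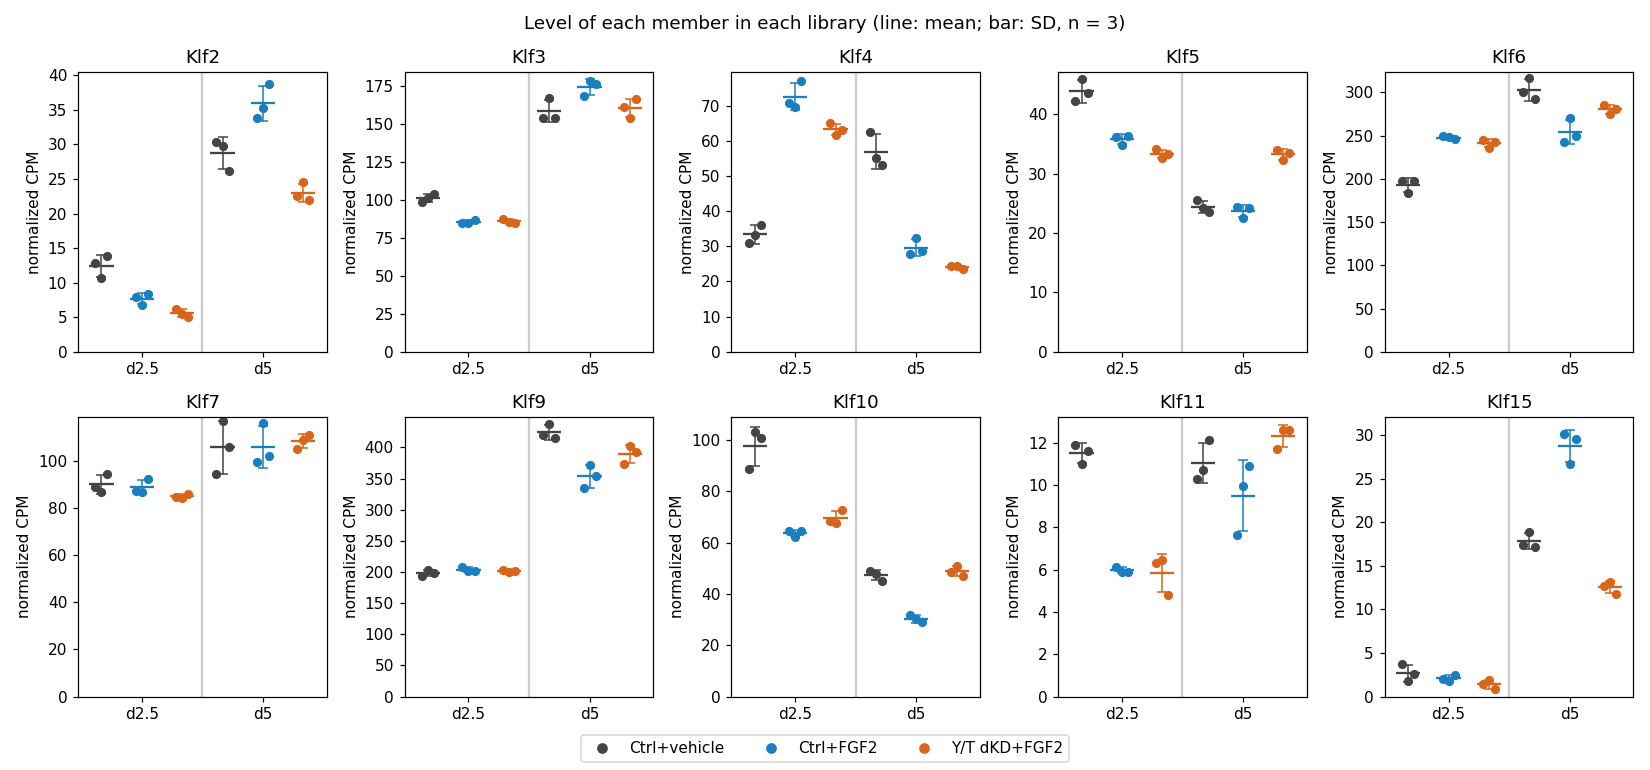
Normalized CPM (vertical axis, starting at 0) of each of the 10 members in each of the 18 libraries, by day and group. Points are libraries, lines are means and bars are SD (n = 3). Klf4 is highest in Ctrl+FGF2 at d2.5, between 69.7 and 76.9 CPM, and Klf15 is highest in Ctrl+FGF2 at d5, between 26.7 and 30.1 CPM.

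FGF2 was compared with vehicle on each day to see how the growth factor moved the members. All 10 members passed the filter on low counts on both days. At d2.5 Klf4 and Klf6 rose and Klf2, Klf3, Klf5, Klf10 and Klf11 fell, while 33.5% of 13677 genes tested were called higher and 34.1% lower. At d5 Klf2, Klf3 and Klf15 rose and Klf4, Klf6, Klf9 and Klf10 fell, while 23.5% of 13304 genes were called higher and 23.7% lower. The 7 of 10 members called on each day thus stand beside 67.6% and 47.2% of all genes. The median log2 fold change of the members was -0.28 at d2.5 and -0.12 at d5, beside 0 and 0.02 over all genes.

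Klf4 had the largest FGF2 effect of the members on both days, with opposite signs. At d2.5 it was at 30.8, 33.3 and 36.0 CPM in the Ctrl+vehicle libraries and at 70.8, 69.7 and 76.9 CPM in the Ctrl+FGF2 libraries. All FGF2 libraries stood above all vehicle libraries, and the level rose 2.16-fold (log2 fold change 1.11 ± 0.06, SE; adjusted p = 1.6e-17). At d5 the order was turned, with 62.6, 55.0 and 53.1 CPM in Ctrl+vehicle and 27.8, 32.3 and 28.6 CPM in Ctrl+FGF2. FGF2 lowered Klf4 to 52.7% of the vehicle level (-0.93 ± 0.07, adjusted p = 1.5e-08). The difference between the days was -2.06 ± 0.09 on the log2 scale (adjusted p = 1.6e-17).

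Klf6, an activator that most cell types express, followed the same signs as Klf4 with smaller changes. It was at 197, 184 and 198 CPM in Ctrl+vehicle and at 249, 248 and 246 CPM in Ctrl+FGF2 at d2.5, a rise of 1.27-fold (0.35 ± 0.03, adjusted p = 1.8e-10). At d5 the values were 299.8, 317 and 292 CPM in Ctrl+vehicle and 243, 269.9 and 249.8 CPM in Ctrl+FGF2, or 84.6% of vehicle (-0.24 ± 0.04, adjusted p = 2.0e-04). The groups did not overlap on either day, and the effects of the 2 days differed by -0.61 ± 0.06 (adjusted p = 1.4e-10).

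Klf2, best known for keeping endothelium quiescent under flow, moved the other way. At d2.5 it was at 12.9, 10.7 and 13.8 CPM in Ctrl+vehicle and at 7.89, 6.77 and 8.42 CPM in Ctrl+FGF2, or 61.7% of vehicle (-0.70 ± 0.11, adjusted p = 3.3e-06). At d5 it was at 30.4, 29.7 and 26.1 CPM in Ctrl+vehicle and at 33.8, 35.2 and 38.8 CPM in Ctrl+FGF2 (1.26-fold, 0.34 ± 0.08, adjusted p = 0.0013). Groups were again without overlap on both days, and the difference between the days was 1.01 ± 0.14 (adjusted p = 2.9e-07).

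Klf5, which drives proliferation in epithelia, and Klf7, known for its part in axon outgrowth, complete the activators. Klf5 fell at d2.5 from 42.2, 46.0 and 43.6 CPM in Ctrl+vehicle to 36.2, 34.9 and 36.4 CPM in Ctrl+FGF2 (80.9% of vehicle, -0.31 ± 0.05, adjusted p = 1.3e-05). At d5 its groups overlapped, with a log2 fold change of -0.03 (95% interval -0.17 to 0.11). The difference between its days was 0.25 ± 0.09 (adjusted p = 0.012; with DESeq2 0.22 and adjusted p = 0.110). Klf7 passed the test on neither day, with -0.03 (-0.11 to 0.06) at d2.5 and 0.01 (-0.12 to 0.14) at d5, and its groups overlapped on both.

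Among the repressors, Klf10 fell on both days. It was at 88.8, 103 and 101 CPM in Ctrl+vehicle and at 64.6, 62.4 and 64.5 CPM in Ctrl+FGF2 at d2.5, or 64.9% (-0.62 ± 0.05, adjusted p = 2.1e-12). At d5 it was at 48.9, 47.7 and 45.1 CPM against 31.9, 30.2 and 28.9 CPM, or 64.8% (-0.63 ± 0.06, adjusted p = 2.1e-07). The difference between the days was -0.03 with a 95% interval of -0.19 to 0.14.

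Klf11, the closest relative of Klf10, showed a fall at d2.5 from 11.9, 11.0 and 11.6 CPM to 6.13, 5.90 and 5.88 CPM, or 51.7% of vehicle (-0.95 ± 0.11, adjusted p = 1.3e-08). At d5 its vehicle libraries (10.3, 10.7 and 12.1 CPM) overlapped the FGF2 libraries (7.63, 9.93 and 10.9 CPM), with a log2 fold change of -0.21 (-0.46 to 0.04). The effects of the 2 days differed by 0.72 ± 0.17 (adjusted p = 4.6e-04).

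Klf9 and Klf3 had small changes. Klf9 was at 194 to 203 CPM in Ctrl+vehicle and at 201 to 208 CPM in Ctrl+FGF2 at d2.5 (0.02, -0.05 to 0.09), and at d5 it fell from 419.9, 437 and 415 CPM to 335, 371 and 354 CPM (84% of vehicle, -0.25 ± 0.04, adjusted p = 7.4e-05). Its effects differed between the days by -0.30 ± 0.05 (adjusted p = 2.3e-05). Klf3 fell at d2.5 from 98.4, 101 and 104 CPM to 84.8, 84.7 and 86.9 CPM (-0.25 ± 0.04, adjusted p = 1.6e-06). At d5 it was higher with FGF2, at 168, 178 and 176 CPM against 154, 167 and 154 CPM (0.15 ± 0.04, adjusted p = 0.0092), a call that was lost without d5 Ctrl+vehicle replicate 3 (0.13, adjusted p = 0.056). The difference between the days was 0.38 ± 0.06 (adjusted p = 1.9e-06).

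Klf15, a regulator of glucose and amino acid metabolism, was rare at d2.5 and rose with FGF2 at d5. Its d2.5 libraries overlapped, at 3.73, 1.81 and 2.55 CPM in Ctrl+vehicle and 2.04, 1.75 and 2.47 CPM in Ctrl+FGF2 (-0.37, -0.85 to 0.12, adjusted p = 0.195). Without d2.5 Ctrl+vehicle replicate 2 the d2.5 difference passed (-0.60, adjusted p = 0.028). At d5 the FGF2 libraries (30.1, 26.7 and 29.6 CPM) all stood above the vehicle libraries (17.4, 18.9 and 17.2 CPM), 1.62-fold (0.70 ± 0.08, adjusted p = 1.3e-06). The effect differed between the days by 1.04 ± 0.25 (adjusted p = 7.7e-04). In all, the FGF2 effect differed between the days for 8 of the 10 members, beside 60.9% of 14198 genes tested.

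**Figure D2:**
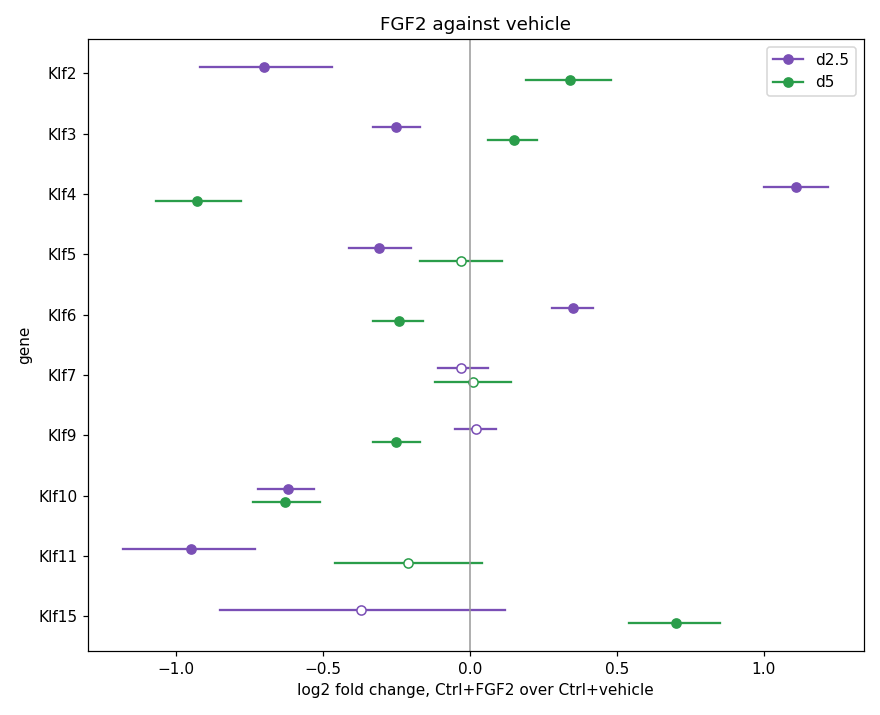
Log2 fold change of Ctrl+FGF2 over Ctrl+vehicle (horizontal axis) for each member at d2.5 and d5, with 95% intervals. Filled points passed the test and open points did not. Klf4 lies at 1.11 at d2.5 and at -0.93 at d5, whereas Klf10 lies at -0.62 and -0.63.

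Between the days, the size of the log2 fold change had a median of 0.81 over the members in Ctrl+vehicle, beside 0.36 and 0.25 for the effect of FGF2 at d2.5 and d5. Many of all genes tested were also called between the days, so this size was not shown to be particular to the members. In Ctrl+vehicle 7 members rose and 2 fell from d2.5 to d5, beside 33.1% of genes called higher and 33.2% called lower. In Ctrl+FGF2 6 rose and 3 fell (41.2% and 38.8% of all genes), and in Y/T dKD+FGF2 7 rose and 2 fell (40.3% and 38.1%). Klf15 had the largest change of the members, with a rise of 6.65-fold with vehicle (log2 fold change 2.73 ± 0.15), 13.6-fold with FGF2 (3.77 ± 0.15) and 8.89-fold with FGF2 and the knockdown (3.15 ± 0.19). Klf2 followed, at 2.32-fold, 4.65-fold and 4.12-fold in this order, and Klf9 rose 2.13-fold, 1.74-fold and 1.93-fold. All of these passed with adjusted p of 1.3e-12 or less. Klf3 rose in each group too (0.65, 1.02 and 0.90 on the log2 scale), as did Klf7 by less (0.24, 0.25 and 0.35).

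Klf10 fell in each group, with d5 levels of 48.4% of d2.5 with vehicle, 47.5% with FGF2 and 70.5% with FGF2 and the knockdown. Klf4 rose 1.70-fold in Ctrl+vehicle (0.77 ± 0.07) and fell with FGF2, to 40.9% under the control siRNA and 38.2% under the knockdown. Klf5 fell to 55.5% and 66.1% in the control siRNA groups and had a log2 fold change of -0.01 in Y/T dKD+FGF2 (95% interval -0.12 to 0.11). Klf6 rose in Ctrl+vehicle (0.65 ± 0.04) and in Y/T dKD+FGF2 (0.22 ± 0.04), with 0.04 (-0.04 to 0.12) in Ctrl+FGF2. Klf11 rose in Y/T dKD+FGF2 (1.07 ± 0.13) and Ctrl+FGF2 (0.67 ± 0.13), with -0.05 (-0.27 to 0.16) in Ctrl+vehicle.

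**Figure D3:**
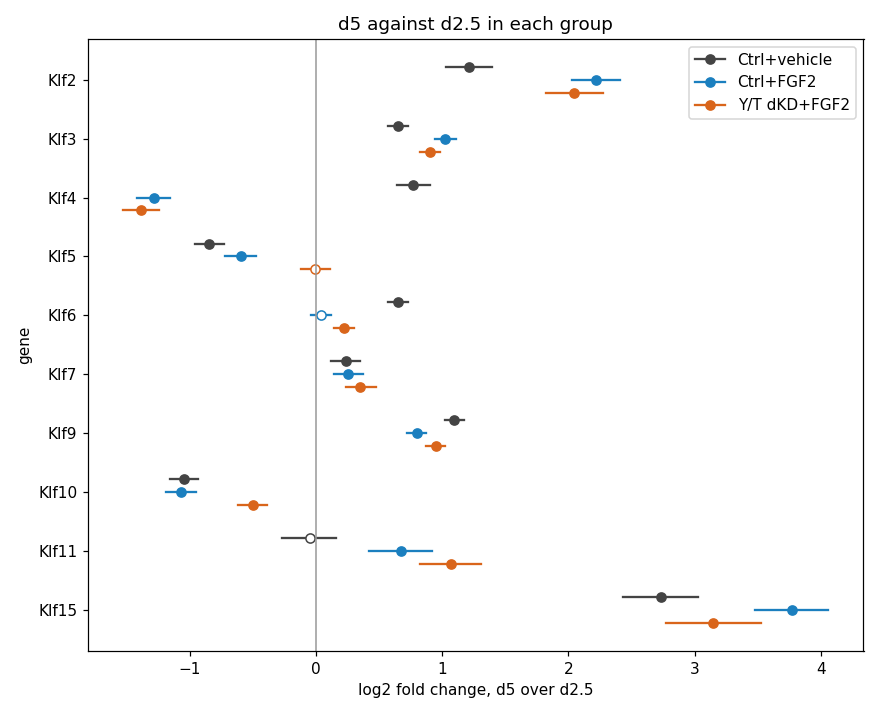
Log2 fold change of d5 over d2.5 (horizontal axis) for each member in the 3 groups, with 95% intervals; filled points passed the test. Klf15 lies furthest to the right in each group, between 2.73 and 3.77, and Klf4 lies at 0.77 in Ctrl+vehicle but at -1.29 and -1.39 in the groups with FGF2.

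The Yap/Taz knockdown was compared with control siRNA, both with FGF2, to see how the members moved when Yap and Taz were reduced. At d2.5 Klf2 and Klf4 fell and 0 members rose by edgeR or DESeq2 (1 at an unadjusted p under 0.05, Klf10), beside 13.6% of genes called lower and 10.8% called higher. At d5 Klf5, Klf6, Klf9, Klf10 and Klf11 rose and Klf2, Klf3, Klf4 and Klf15 fell, beside 15.6% called higher and 16.1% called lower. The 9 of 10 members called at d5 stand beside 31.7% of all genes, and the 2 of 10 at d2.5 beside 24.5%. Because the members were chosen with earlier results known, these shares are no test of the family. At d5 Klf8, Klf12, Klf13 and Klf16, the other Klf genes tested, were not called. The median log2 fold change of the members was -0.06 at d2.5 and 0.08 at d5, beside 0 over all genes on both days. These comparisons share the Ctrl+FGF2 libraries with those of FGF2 against vehicle, so the values are given side by side only.

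Klf15 had the largest fall. At d5 it was at 30.1, 26.7 and 29.6 CPM in Ctrl+FGF2 and at 12.7, 13.2 and 11.8 CPM in Y/T dKD+FGF2, or 43.7% (-1.20 ± 0.08, adjusted p = 7.2e-09). The knockdown libraries were also below the vehicle libraries, at 70.9% of Ctrl+vehicle (-0.50 ± 0.09, adjusted p = 2.6e-04). At d2.5 the knockdown libraries (1.41, 1.94 and 0.869 CPM) overlapped those of Ctrl+FGF2, with -0.58 (-1.15 to 0.00, adjusted p = 0.157). The difference between the days missed the threshold (-0.62 ± 0.31, adjusted p = 0.167).

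Klf2 fell on both days with the knockdown. It was at 6.21, 5.52 and 5.05 CPM at d2.5, or 72% of Ctrl+FGF2 (-0.47 ± 0.14, adjusted p = 0.011), and at 22.5, 24.5 and 22.0 CPM at d5, or 63.9% (-0.65 ± 0.08, adjusted p = 4.6e-06). The d2.5 call was lost without Ctrl+FGF2 replicate 3 (-0.40, adjusted p = 0.071) or without Y/T dKD+FGF2 replicate 3 (-0.41, adjusted p = 0.074), which leaves 1 member called. Klf4 was at 64.9, 61.7 and 63.1 CPM at d2.5, or 86.6% of Ctrl+FGF2 (-0.21 ± 0.05, adjusted p = 0.0032), and at 24.3, 24.5 and 23.5 CPM at d5, or 81.1% (-0.30 ± 0.08, adjusted p = 0.0088). Its d5 call was lost without Ctrl+FGF2 replicate 2 (-0.23, adjusted p = 0.055). The knockdown libraries of both genes stood below all Ctrl+FGF2 libraries on both days, and the effects of the 2 days differed by -0.18 (-0.50 to 0.14) for Klf2 and by -0.10 (-0.29 to 0.10) for Klf4.

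Klf10 and Klf5 rose at d5 and passed the test of a difference between the days. Klf10 was at 48.7, 50.9 and 47.2 CPM in Y/T dKD+FGF2 at d5, 1.61-fold over Ctrl+FGF2 (0.69 ± 0.06, adjusted p = 1.1e-07), and its d2.5 change was 0.11 (0.01 to 0.22, adjusted p = 0.121). The d5 knockdown libraries of Klf10 overlapped those of Ctrl+vehicle (log2 fold change 0.06, -0.05 to 0.17). Klf5 was at 34.0, 32.3 and 33.5 CPM at d5, 1.40-fold over Ctrl+FGF2 (0.48 ± 0.07, adjusted p = 2.3e-05), and above Ctrl+vehicle as well (1.37-fold, 0.45 ± 0.07). At d2.5 its change was -0.11 (-0.23 to 0.00, adjusted p = 0.178). The difference between the days was 0.57 ± 0.09 for Klf10 (adjusted p = 1.2e-05) and 0.59 ± 0.08 for Klf5 (adjusted p = 6.4e-06).

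The other d5 calls were small. Klf11 rose from 7.63, 9.93 and 10.9 CPM to 11.7, 12.6 and 12.6 CPM (0.37 ± 0.12, adjusted p = 0.033), Klf6 by 0.14 ± 0.04 (adjusted p = 0.025) and Klf9 by 0.13 ± 0.04 (adjusted p = 0.020), whereas Klf3 fell (-0.12 ± 0.04, adjusted p = 0.037). For these 4 members the d5 libraries of Y/T dKD+FGF2 and Ctrl+FGF2 did not overlap, though the share of all genes without overlap was not computed. Against Ctrl+vehicle the knockdown libraries of Klf3 and Klf11 did overlap. The calls of Klf11 and Klf3 were lost with DESeq2 (adjusted p = 0.100 and 0.097). Leaving out single d5 libraries also ended calls: Ctrl+FGF2 replicate 1 for Klf11 (0.24), Klf6 (0.10) and Klf9 (0.09), Ctrl+FGF2 replicate 2 for Klf3 (-0.11), and Ctrl+FGF2 replicate 3 for Klf3 (-0.11), Klf6 (0.13) and Klf9 (0.14). Among Y/T dKD+FGF2 libraries it was replicate 1 for Klf11 (0.40), Klf3 (-0.13) and Klf6 (0.12), replicate 2 for Klf11 (0.34), Klf3 (-0.10) and Klf9 (0.11), and replicate 3 for Klf11 (0.35), Klf6 (0.14) and Klf9 (0.13). Klf7 was at 105 to 111 CPM with 0.03 (-0.10 to 0.15). The knockdown effect differed between the days for 4 of the 10 members, beside 20.9% of genes: Klf5, Klf10, Klf6 (0.18 ± 0.06, adjusted p = 0.023) and Klf9 (0.15 ± 0.05, adjusted p = 0.046), and the count fell to 2 without d2.5 Ctrl+FGF2 replicate 1 or 2, d2.5 Y/T dKD+FGF2 replicate 2, or d5 Ctrl+FGF2 replicate 1 or 3. Of the 18 fits that left out a library, 6 ended the Klf6 call (0.15 to 0.22 over all of them) and 13 the Klf9 call (0.11 to 0.19).

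**Figure D4:**
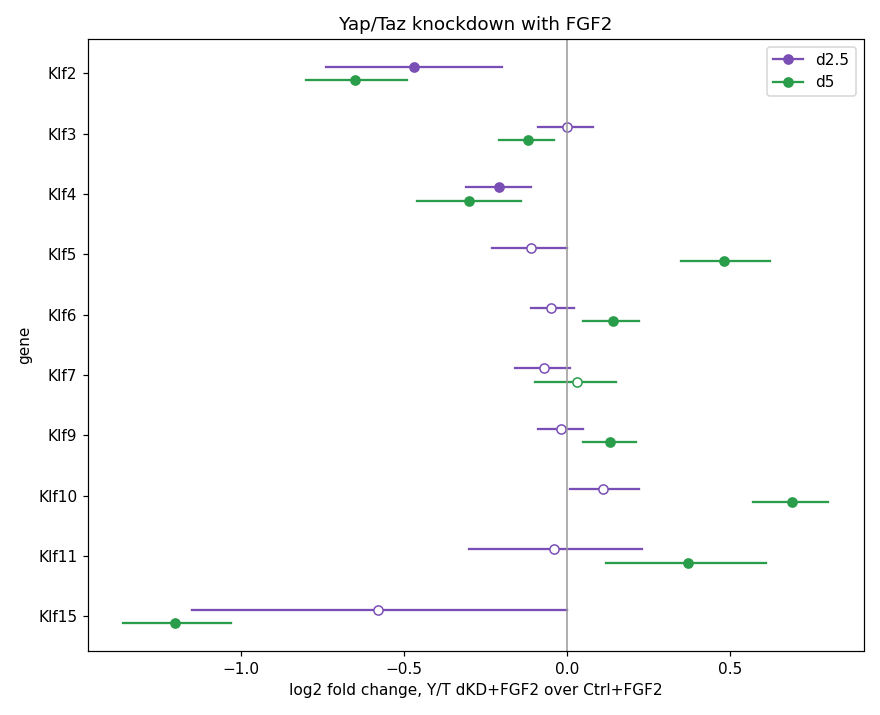
Log2 fold change of Y/T dKD+FGF2 over Ctrl+FGF2 (horizontal axis) for each member at d2.5 and d5, with 95% intervals; filled points passed the test. At d5 Klf15 lies at -1.20 and Klf2 at -0.65, while Klf10 lies at 0.69 and Klf5 at 0.48.

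Against Ctrl+vehicle, the knockdown cells with FGF2 show how far each level stood from the group without FGF2; at d2.5 Wwtr1 was not called lower in this comparison. At d2.5 2 members were higher (Klf4 1.87-fold, Klf6 1.23-fold) and 7 lower, beside 34.1% and 35.7% of all genes, with Klf2 at 44.5% (-1.17 ± 0.13), Klf11 at 50.4% (-0.99 ± 0.12), Klf15 at 52% (-0.94 ± 0.28) and Klf10 at 70.3% (-0.51 ± 0.05). The Klf15 call was lost without d2.5 Ctrl+vehicle replicate 1 (-0.63, adjusted p = 0.054). Klf7 (-0.10, adjusted p = 0.037) was not called with DESeq2 (adjusted p = 0.144), RLE factors (adjusted p = 0.050), no filter on low counts (adjusted p = 0.099), only the 2 groups compared (adjusted p = 0.058) or all 18 libraries in 1 fit (adjusted p = 0.218), or when Ctrl+vehicle replicate 3 (-0.07) or Y/T dKD+FGF2 replicate 1 (-0.09), 2 (-0.09) or 3 (-0.11) was left out. At d5 Klf5 was higher, and Klf4 (42.7%, -1.23 ± 0.08), Klf15, Klf2 (80.6%) and Klf9 (92.1%) were lower, beside 20.7% and 21.1% of all genes. The Klf9 call (-0.12, adjusted p = 0.028) was lost without Ctrl+vehicle replicate 2 (-0.11) and without Y/T dKD+FGF2 replicate 1 (-0.09) or 3 (-0.12), and Klf6 (-0.11, adjusted p = 0.062) passed without Ctrl+vehicle replicate 3 (-0.13) or Ctrl+FGF2 replicate 1 or 2 (-0.11 each), and with RLE factors, no filter, only the groups compared or all libraries in 1 fit.

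The profile over the 6 groups differed widely among the members. The range of the group means on the log2 scale was 4.39 for Klf15, 2.68 for Klf2, 1.68 for Klf10 and 1.58 for Klf4, and 0.35 for Klf7. By the root mean square difference of the 6 centred group means, Klf3 and Klf9 (0.15) and Klf6 and Klf7 (0.15) were nearest to each other, then Klf5 and Klf10 (0.28). The measure is not scaled, so members with small ranges, such as Klf6 (0.65) and Klf7, lie close by size alone. Klf6 was called with FGF2 on both days and Klf7 on neither. Klf11 was nearest to Klf3 (0.32), Klf2 to Klf3 (0.57), Klf4 to Klf6 (0.62) and Klf15 to Klf2 (0.74). Klf15 and Klf10 were farthest apart (2.15). Over 11617 other genes whose log2 CPM averaged 1 or more, the 5 most like Klf4 were Tube1 (0.20), Gcat, Phf10, Gm43719 and Btbd11 (0.21 each). The most abundant of them, Phf10, was at 119 CPM with vehicle, 206 CPM with FGF2 and 202 CPM with FGF2 and the knockdown at d2.5, and at 130.1, 80.7 and 78.7 CPM at d5.

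Relatives and partners of the members were read from lists, whose counts stand beside those of all genes tested. With FGF2 33.5% of all genes were called higher and 34.1% lower at d2.5, and 23.5% and 23.7% at d5. With the knockdown the shares were 10.8% and 13.6% at d2.5, and 15.6% and 16.1% at d5. The median log2 fold change of all genes was 0 and 0.02 with FGF2 on the 2 days, and 0 with the knockdown on both. Of 7 other Klf genes, 4 passed the filter, and Klf14 and Klf17 had no counts. With FGF2 2 of the 4 rose and 1 fell at d2.5, and 1 rose and 2 fell at d5, with Klf12, a CtBP-binding repressor, lower on both days (-0.71 ± 0.08 and -0.56 ± 0.09). With the knockdown Klf16 fell at d2.5 (-0.30 ± 0.08) and at d5 the 4 genes lay between -0.03 (Klf13) and 0.39 (Klf8), with unadjusted p of 0.211 or more. Of 9 genes for the related Sp factors, 5 passed the filter, and Sp7, which osteoblast formation requires, fell with FGF2 at d2.5 (-2.82 ± 0.10), rose with FGF2 at d5 (0.32 ± 0.09) and rose with the knockdown on both days (0.46 ± 0.13 and 0.65 ± 0.09). In all, 2 Sp genes rose and 2 fell with FGF2 on each day, and 3 and 1 rose with the knockdown.

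Of 12 corepressors, coactivators and ubiquitin ligases that act with Klf proteins, 6 rose and 4 fell with FGF2 at d2.5, and 3 rose and 5 fell at d5, where 67.6% and 47.2% of all genes were called in either direction. The changes were small: Crebbp, a histone acetyltransferase, fell most at d2.5 (-0.40 ± 0.05), and Sin3b, a Sin3 corepressor, rose most at d5 (0.38 ± 0.05). With the knockdown 2 rose and 2 fell at d2.5, and 2 rose and 1 fell at d5 (24.5% and 31.7% of all genes called), with Hdac3, a histone deacetylase, lower on both days (-0.23 ± 0.04 and -0.30 ± 0.05). The Erk5 and Mef2 cascade had 7 of 8 genes tested. With FGF2 3 rose and 3 fell at d2.5, where Mef2c fell (-1.48 ± 0.05) and Mef2a rose (0.67 ± 0.04), and 3 rose and 1 fell at d5. With the knockdown 2 rose and 1 fell at d2.5, and 1 rose and 2 fell at d5, with Mef2c at 0.45 ± 0.05 and -0.37 ± 0.06. Mapk7, which encodes Erk5, fell with FGF2 (-0.41 ± 0.08) and with the knockdown (-0.40 ± 0.09) at d2.5.

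Klf9 and Klf15 are induced by glucocorticoids in many tissues, but whether that input acted in these cells was not tested. All 12 genes of a glucocorticoid list, with the gene of the receptor itself among them, were tested. With FGF2 6 rose and 5 fell at d2.5, and at d5 7 rose and the other 5 lay between 0.01 and 0.13, with median log2 fold changes of -0.03 and 0.32. At d5 the largest rises were in Cebpd (0.92 ± 0.10), Pdk4 (0.88 ± 0.04) and Glul (0.61 ± 0.04). With the knockdown 4 rose and 3 fell at d2.5, and 2 rose and 7 fell at d5 (median -0.19), with Zbtb16 (-0.60 ± 0.06) and Tsc22d3 (-0.52 ± 0.04) falling and Dusp1 rising (0.60 ± 0.07). Beside them, Klf15 had 0.70 with FGF2 and -1.20 with the knockdown at d5, and Klf9 had -0.25 and 0.13. At d2.5 neither was called with FGF2 or with the knockdown.

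Of 10 TGF-beta response genes, 1 rose and 8 fell with FGF2 at d2.5 (median -0.66 beside 0 over all genes), with Smad6 (-2.63 ± 0.13), Tgfbi (-2.45 ± 0.03) and Bambi (-1.99 ± 0.10) falling most. At d5 2 rose and 5 fell (median -0.26 beside 0.02), with Pmepa1 at -0.82 ± 0.06. With the knockdown 2 rose and 2 fell at d2.5, and 7 rose and 1 fell at d5 (median 0.39 beside 0, with 15.6% of all genes called higher and 16.1% lower), with Tgfbi (1.29 ± 0.04), Pmepa1 (0.70 ± 0.06) and Ccn2 (0.60 ± 0.08) rising most. Ccn2 is also known as a direct target of Yap and Taz. Klf10 and Klf11 were both named for their early induction by TGF-beta. Klf10 stood at -0.62 and -0.63 with FGF2 at d2.5 and d5, and with the knockdown at 0.11 (not called, adjusted p = 0.121) and 0.69. Klf11 stood at -0.95 and -0.21 (not called, adjusted p = 0.198) with FGF2, and with the knockdown at -0.04 (not called, adjusted p = 0.880) and 0.37, the last lost with DESeq2 (adjusted p = 0.100).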

How the data were processed

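The authors deposited raw, unscaled gene counts of 18 libraries (poly(A) RNA), laid out as STAR writes them. Per the labels, FastQC, STAR, Picard and featureCounts were used with mm10, without versions. The reverse-strand column, which held 96.0% to 96.6% of stranded counts, was used. Entries that name no gene (27.0% to 34.4% of a library) were left out, so reads on several places or on overlapping genes of one strand were not counted. Of 55335 identifiers, 55154 matched GENCODE M21 (GRCm38).

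The quasi-likelihood test of edgeR 4.0.16 (R 4.3.3) was run after TMM scaling and filterByExpr, with the 9 libraries of each day in 1 fit. Differences between days came from a fit of all 18 libraries. The study's methods name no test for these counts. P-values were adjusted over all genes tested (Benjamini-Hochberg, 0.05), and a standard error is the size of the log2 fold change over the root of the test's F. Levels are CPM with TMM factors of the 18 libraries; the log2 CPM used for likeness has a prior count of 0.5. The fit was tested on simulated data in which far fewer genes changed than here, so this does not check the scaling where most genes move. Alternatives were DESeq2 1.42.0, RLE factors, no filter, only the 2 groups compared, 1 fit of all libraries, a replicate block, unstranded counts and leaving out each library. Replicates differed by more than sampling noise (chi-square per degree of freedom 1.28 to 7.03). All members are named; from other lists, at most the 3 largest called changes per comparison are. The members and lists were chosen with earlier results of these data known.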

Additional observations from a re-analysis of the deposited data

Results flagged for a closer look

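For 8 members the FGF2 effect differed between d2.5 and d5 by edgeR's test of the difference itself, given here as the d5 effect minus the d2.5 effect on the log2 scale. The differences were -2.06 for Klf4, -0.61 for Klf6, -0.30 for Klf9, 0.25 for Klf5, 0.38 for Klf3, 0.72 for Klf11, 1.01 for Klf2 and 1.04 for Klf15. Klf4, Klf6, Klf2 and Klf3 were called in opposite directions on the 2 days. The knockdown effect differed between the days for 4 members, by 0.59 for Klf5, 0.57 for Klf10, 0.18 for Klf6 and 0.15 for Klf9. Since each day is its own batch, a change of the effect with time and one with the batch cannot be told apart. Groups of 3 are too small for a test of single stray libraries.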

How the results depend on the processing

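Of 110 member effects, 78 were called, and 65 of these kept their direction and their side of the threshold under every alternative. The effects come from comparisons that reuse the same libraries, so they are not separate results. The shares of all genes called are given with each comparison above. The number of members called under the knockdown at d2.5 was 2, and 1 to 2 when a library was left out. At d5 it was 9, and 6 to 9 when a library was left out (calls of Klf3, Klf4, Klf6, Klf9 or Klf11 lost). The number whose knockdown effect differed between days was 4, and 2 with no filter on low counts and 2 to 4 when a library was left out (Klf6 and Klf9 lost). Sign changes were seen only in effects that passed no test. With 1 library left out, Klf7 ranged from -0.05 to 0.01 (FGF2, d2.5), -0.06 to 0.09 (FGF2, d5), -0.02 to 0.10 (knockdown, d5) and -0.03 to 0.11 (knockdown against vehicle, d5). The difference between days of FGF2 for Klf7 was -0.01 with DESeq2 or RLE factors. With 1 library left out it ranged from -0.06 to 0.09, and its sign changed in 4 of 18 fits. Likewise Klf11 ranged from -0.12 to 0.09 (knockdown, d2.5), Klf5 from -0.06 to 0.01 (FGF2, d5), Klf10 from -0.07 to 0.04 (difference of FGF2), Klf6 from -0.01 to 0.07 (days, Ctrl+FGF2) and Klf5 from -0.04 to 0.02 (days, Y/T dKD+FGF2). The replicate block gave the same number of members called in every comparison (7, 2 and 9 at d2.5, 7, 9 and 5 at d5). Deviations of same-numbered libraries of different groups had r from -0.06 to 0.08, beside -0.1 to 0.06 for libraries of different number. Of 18 libraries, 1 correlated best with its own number in both other groups. No clear pairing by number was seen, though such low values cannot exclude a weak one. Depth limits Klf15 at d2.5, with 11 to 54 counts per library, where DESeq2 gave no adjusted p for the knockdown.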
